A study of Mus musculus with 51 samples.

Results

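The comparison described here set the control lungs of B-cell deficient mice against those of C57BL/6 mice. Its members were the 9 arrays titled as controls of strain B6.129S2-Ighmtm1Cgn/J and the 6 titled C57BL/6 controls (1 to 6), so 15 of the 51 arrays of the series, with all 22206 probe sets. All were male mice aged 6 to 8 weeks. Their shaved backs had been painted on 2 occasions with 1% methylene diphenyl diisocyanate (MDI, a building block of polyurethane that can sensitize airways) in acetone. On days 15, 16, 19 and 20 their airways were exposed under isoflurane to a control solution in which MDI and glutathione (GSH) had been reacted separately, and no crofelemer (a chloride channel inhibitor used elsewhere in the series). Perfused, lavaged lung was taken 48 h after the last exposure. The control groups are therefore skin-sensitized mice and not untreated ones. RNA from each lung was measured on a 1-colour array; nothing in the labels says whether animals were littermates or housed together, so p-values measure the spread between these samples only.

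The strain carries a targeted change of Ighm, the gene of the heavy chain of immunoglobulin M, whose membrane form is needed for developing B cells to pass the pre-B cell stage. Mature B cells and the plasma cells that arise from them are therefore missing or very rare in these mice. In the lung, B cells make up part of the resident lymphocyte pool, present antigen through MHC class II, and, as plasma cells, secrete the antibodies that reach the airway lumen through the polymeric immunoglobulin receptor. The strain name also records stem cells of another mouse strain placed on a C57BL/6 background, and the labels do not name the C57BL/6 substrain of the comparison mice. Probe sets named as Ighm, or as any other heavy or light chain constant gene on the list used, were not among those analysed here, so the targeted gene itself was not checked, and the labels were checked through B cell genes instead.

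Levels are log2 signals after the 15 arrays were brought to a common distribution (quantile normalization), and a difference is B-cell deficient minus C57BL/6 on that log2 scale, ± the standard error of the limma fit. A probe set is called changed at a Benjamini-Hochberg adjusted p under 0.05 over all 22206 probe sets. By that rule 11612 probe sets (52.3%) were called, 5864 higher (26.4%) and 5748 lower (25.9%). With a difference of at least 2-fold as well, 1431 (6.44%) were called, 700 higher (3.15%) and 731 lower (3.29%), and the text leans on this narrower count. In 2074 probe sets (9.34%) every B-cell deficient array lay below every C57BL/6 array, and in 1995 (8.98%) every one lay above.

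Before normalization the array means lay between 8.02 and 8.07 in B-cell deficient mice and between 7.49 and 7.51 in C57BL/6 mice. The deposited levels of the genotypes therefore do not overlap. Nor does their spread, with an interquartile range of 4.05 to 4.71 in B-cell deficient arrays and 5.07 to 5.30 in C57BL/6 arrays. The records of the 9 B-cell deficient controls form a single consecutive run, separate from the runs of C57BL/6 controls 1 to 4 and of controls 5 and 6. Genotype and submission run cannot be told apart in the control groups. Taken as deposited, 5164 probe sets passed the 2-fold rule and 96% of them were higher in B-cell deficient mice, against 48.9% after quantile normalization, and the median difference of all probe sets was 0.54. Within a genotype the median correlation of an array with the others of its group was 0.989 to 0.992, no 2 arrays held identical values, and B-cell deficient controls 1, 2, 5 and 6 had a narrower deposited spread than the other 5. Without those 4 arrays, an alternative added after the data were seen, 975 probe sets passed the 2-fold rule.

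The largest and most uniform difference lay in B cell genes. Of 29 measured genes of B cell identity, 26 were called lower and none higher, 23 of them by at least 2-fold (3.29% of all probe sets were), and the groups did not overlap in 23. The median difference of the 29 genes was -2.28, beside 0.00 over all probe sets. The 23 genes ran from -6.32 down to a smallest fall of -1.22, so from 79.9-fold to 2.33-fold lower on this scale. Of these genes 9 lay below the 20th percentile of probe sets in B-cell deficient arrays, so the low end of the scale limits how exact those folds are. In bulk lung, fewer cells of a type and less RNA per cell cannot be told apart.

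Signalling genes of the B cell receptor were among those that fell. Cd79a, the alpha chain that pairs with surface immunoglobulin, had levels of 4.70 (lowest), 4.89 (median) and 5.26 (highest) in the 9 B-cell deficient arrays, and of 10.37, 11.29 and 11.86 in the 6 C57BL/6 arrays. The groups lay far apart, with the nearest arrays separated by more than the whole range of either group. The fall was 6.32 ± 0.18 (adjusted p = 7.52e-16, limma), from 11.20 ± 0.56 (SD, n = 6) to 4.88 ± 0.18 (n = 9). Its partner Cd79b fell by 3.23 ± 0.18 (adjusted p = 3.42e-11), from between 8.56 and 9.30 to between 5.32 and 6.50. Downstream of the receptor, the adaptor Bank1 fell by 4.95 ± 0.20 and the adaptor Blnk fell by 2.22 ± 0.15, while the kinase Blk fell by 1.89 ± 0.16. Cd22, an inhibitory co-receptor, fell by 3.31 ± 0.16. Every B-cell deficient array was below every C57BL/6 array for each of these genes.

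**Figure D1:**
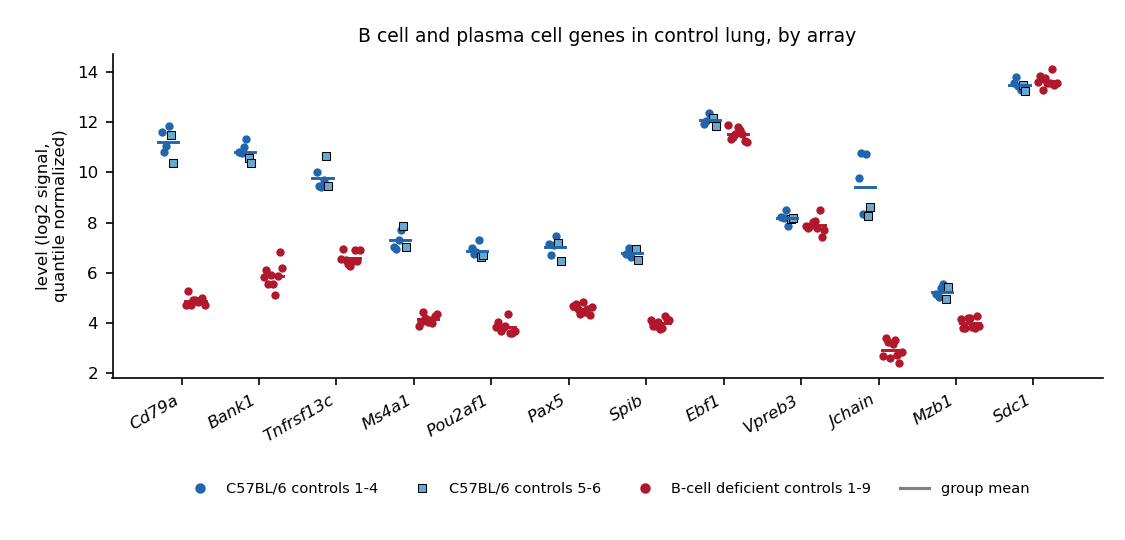
Level (log2 signal, quantile normalized; y axis) of 12 B cell and plasma cell genes (x axis) in each array, with blue circles for C57BL/6 controls 1 to 4, outlined squares for controls 5 and 6, red circles for the 9 B-cell deficient controls and a bar for each group mean. From Cd79a to Spib the groups stand apart, as they do for Jchain and Mzb1, whereas Ebf1, Vpreb3 and Sdc1 overlap.

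Surface proteins that define mature B cells moved the same way. Ms4a1, the CD20 antigen, lay between 3.88 and 4.41 in B-cell deficient arrays and between 6.96 and 7.86 in C57BL/6 arrays, and it fell by 3.18 ± 0.14 (adjusted p = 1.50e-12). Tnfrsf13c, the receptor for the survival factor BAFF, fell by 3.19 ± 0.17 and the tetraspanin Cd37 fell by 3.10 ± 0.22. Cxcr5, which guides B cells to follicles, fell by 2.98 ± 0.16, the IgM receptor Fcmr fell by 2.48 ± 0.15, the Fc receptor-like gene Fcrl1 fell by 2.43 ± 0.12, the inhibitory receptor Btla fell by 2.28 ± 0.14 and the low-affinity IgE receptor Fcer2a fell by 2.11 ± 0.14. Smaller falls of at least 2-fold were seen for Cr2, complement receptor 2 (1.31 ± 0.13 lower in size, and -0.43 on the deposited scale), and for Cd180, a Toll-like receptor homologue, whose groups overlapped (9.53 ± 0.59 against 10.81 ± 0.70). Without the 4 arrays of narrow spread the difference of Cd180 was -0.84. By contrast Cd55, a complement regulator of many cell types, differed by -0.24 ± 0.10 (adjusted p = 0.0471), and its call ended in 18 of the 29 alternatives tried.

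Transcription factors of the lineage fell too. Pou2af1, the co-activator that binds octamer factors, fell by 3.05 ± 0.13 (adjusted p = 7.47e-13), Spib fell by 2.79 ± 0.11 and Pax5, which holds B cell identity, fell by 2.46 ± 0.14, with no overlap between the groups. Ebf1, a partner of Pax5 that stromal cells of the lung also express, fell only by 0.57 ± 0.11, stayed at 11.53 ± 0.24 in B-cell deficient lung and overlapped between the groups (-0.94 with arrays centred on their median). The 3 listed genes that did not pass were Vpreb3 (-0.29 ± 0.14, adjusted p = 0.0926), Rasgrp3 (-0.15 ± 0.17, adjusted p = 0.455) and Siglecg (0.31 ± 0.14, adjusted p = 0.0741), and the first 2 of these changed sign on the deposited scale (0.13 and 0.04). With arrays centred on their median Vpreb3 (-0.43) and Rasgrp3 (-0.52) were called lower and Siglecg (0.70) higher, and the deposited scale also called Siglecg (1.26). Without B-cell deficient control 7, Vpreb3 (-0.37) and Siglecg (0.36) were called.

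The octamer is the textbook element of immunoglobulin and B cell promoters, and it was searched as ATGCAAAT or its reverse complement ATTTGCAT in the 300 bases around each start site (RefSeq promoters, GRCm38.p6). Of the 29 measured B cell genes, 25 had a promoter entry, with 32 promoters in all. It was found in 2 of the 32 (6.25%), those of Blnk and Vpreb3, and in 570 of all 32851 promoters (1.74%). The 250 bases before the start of these 2 genes are shown, since Blnk fell by 2.22 ± 0.15 and Vpreb3 was not called; capitals mark the octamer.
Blnk, chr19:40994222-40994471, minus strand: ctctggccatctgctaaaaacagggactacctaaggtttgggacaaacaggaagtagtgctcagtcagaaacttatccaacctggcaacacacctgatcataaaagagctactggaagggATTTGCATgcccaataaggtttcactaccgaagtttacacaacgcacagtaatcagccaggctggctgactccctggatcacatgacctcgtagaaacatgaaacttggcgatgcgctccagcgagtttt
Vpreb3, chr10:75948050-75948299, plus strand: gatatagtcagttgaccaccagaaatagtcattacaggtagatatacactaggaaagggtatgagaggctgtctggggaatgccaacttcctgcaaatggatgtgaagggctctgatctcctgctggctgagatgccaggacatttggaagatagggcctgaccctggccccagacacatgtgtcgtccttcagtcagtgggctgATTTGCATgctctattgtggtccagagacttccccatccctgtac
The octamer starts 130 bases before the start of Blnk and 45 bases before that of Vpreb3. A match is a description of these letters only, and the absence of a match in the other 30 promoters says nothing of the factors that act on them.

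Antibody-secreting cells were read from 12 measured genes of immunoglobulin production and plasma cells. Of these, 6 were called lower, none higher and 6 not called, with a median of -0.52, where 25.9% of all probe sets were called lower. Jchain, the joining chain of polymeric IgA and IgM, had the largest fall of all named genes. It lay at 2.38 (lowest), 2.85 (median) and 3.39 (highest) in B-cell deficient arrays and at 8.25, 9.19 and 10.77 in C57BL/6 arrays, a fall of 6.50 ± 0.34 (adjusted p = 1.34e-11). Its mean in B-cell deficient mice stood among the very lowest of the array (percentile 0.018), so the size of that fall is limited by the low end of the scale. Tnfrsf13b, the receptor TACI, fell by 1.50 ± 0.15 and Mzb1, a chaperone of antibody-secreting and marginal zone B cells, fell by 1.27 ± 0.12. On the deposited scale these were -0.71 and -0.41, and 1 gene of the list was 2-fold lower in place of 3. Tnfrsf17, the plasma cell receptor BCMA, had -0.82 ± 0.15 (adjusted p = 0.000128) and the factor Irf4 -0.78 ± 0.15 (adjusted p = 0.000191), but both turned to 0.09 and 0.14 on the deposited scale. Xbp1, a secretory factor that epithelium also expresses, fell by 0.66 ± 0.11, and by 1.17 in size with arrays centred on their median. The syndecan Sdc1 (0.17 ± 0.11, adjusted p = 0.211; -0.19 with arrays centred on their median) and Prdm1 (0.30 ± 0.21, adjusted p = 0.228), which plasma cells share with epithelial and other cells, were not called. Both were called higher on the deposited scale (0.36 and 0.69), and Prdm1 also without the 4 arrays of narrow spread (0.67).

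Of 14 genes of lymphoid follicles, 4 were called lower and 2 higher, with a median of -0.02, beside 25.9% lower and 26.4% higher over all probe sets. Ltb, lymphotoxin beta, fell by 2.21 ± 0.15 (adjusted p = 1.55e-09) and Ccr6, a chemokine receptor of B cells and some T cells, fell by 1.31 ± 0.13 (-0.43 on the deposited scale), both without overlap. Cxcl13, the chemokine that draws cells bearing Cxcr5, fell by 0.98 ± 0.18, from between 10.27 and 11.37 to between 9.28 and 10.51, so the groups overlapped. Tnfsf13b, the survival factor BAFF, was higher by 0.55 ± 0.13 (adjusted p = 0.00195), and that call ended with arrays centred on their median (0.30) and with C57BL/6 controls 5 and 6 alone (0.33). Of 10 Fc receptor genes, 5 were lower and 2 higher. Fcgr4 fell by 1.64 ± 0.32 and the shared signalling chain Fcer1g fell by 1.50 ± 0.21. Pigr, which carries polymeric antibody across epithelium, rose by 0.89 ± 0.23 (adjusted p = 0.00288), and Fcgrt, the neonatal Fc receptor, rose by 0.68 ± 0.14. With C57BL/6 controls 5 and 6 alone the calls of Fcgr4 (-0.99, adjusted p = 0.103) and Fcgrt (0.35, adjusted p = 0.147) ended, and that of Fcgrt also ended with arrays centred on their median (0.31, adjusted p = 0.0754). On the deposited scale Fcgr4 fell too, with adjusted p = 0.00459 and a smaller size.

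Antigen presentation genes followed in part. Of 11 MHC class II genes, 9 were called lower and none higher, 3 by at least 2-fold, with a median of -0.53. The shares of all probe sets were 25.9% lower and 3.29% lower by at least 2-fold. H2-Ob, a B cell subunit of the DO complex counted on the B cell list, fell by 2.64 ± 0.17. Its partner H2-Oa fell by 1.08 ± 0.20, the peptide loader H2-DMb2 fell by 1.09 ± 0.14 and H2-Eb2 fell by 1.15 ± 0.13. The classical chains, which dendritic cells and macrophages also make, fell less and overlapped between the groups. H2-Aa had 14.43 ± 0.37 against 15.08 ± 0.43 (a difference of -0.65 ± 0.18) and H2-Ab1 14.84 ± 0.45 against 15.46 ± 0.26 (-0.62 ± 0.17). With C57BL/6 controls 5 and 6 alone neither was called (-0.49 and -0.40), and H2-Aa was not called without the 4 arrays of narrow spread (-0.46, adjusted p = 0.0512). With arrays centred on their median both differences were larger in size (-1.10 and -1.12). The deposited scale left none of the 11 genes 2-fold lower and ended the calls of H2-Oa (-0.27, adjusted p = 0.234) and H2-Eb2 (-0.26, adjusted p = 0.101).

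**Figure D2:**
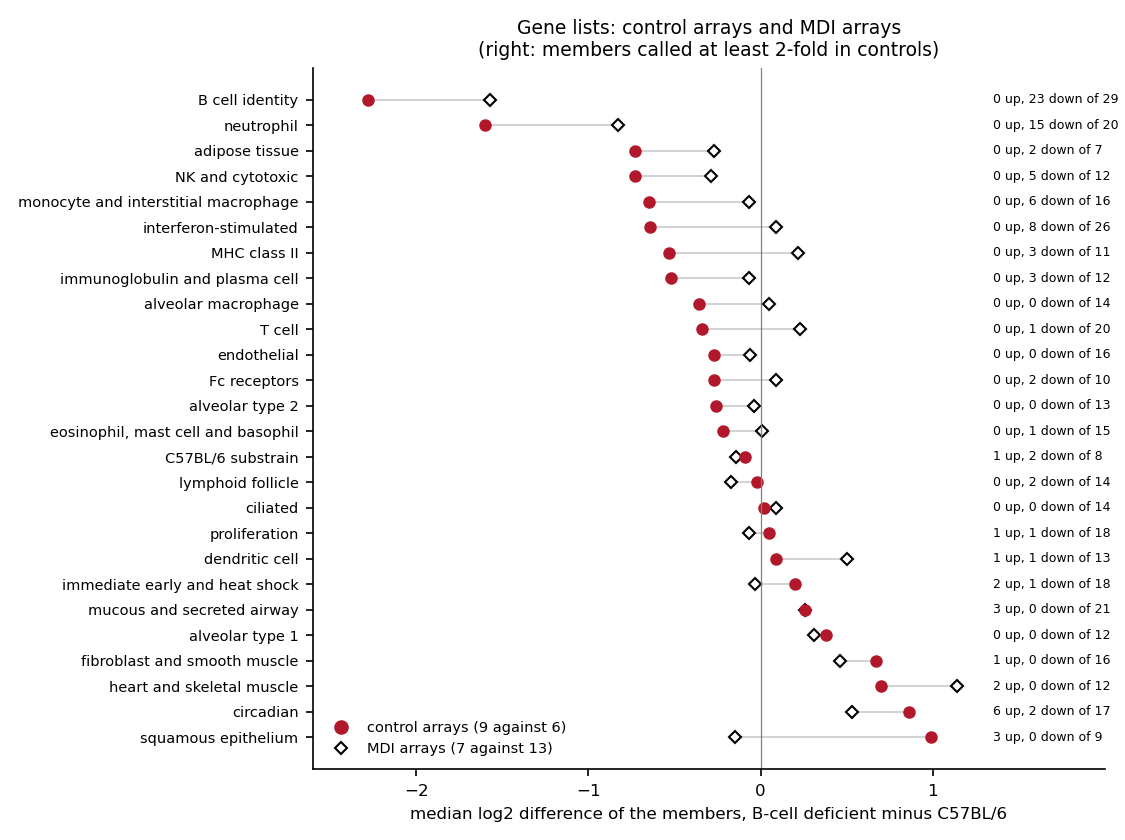
Median log2 difference of the members (x axis) of 26 gene lists with at least 7 measured genes (y axis), as red circles for the control arrays (9 against 6) and open diamonds for separate MDI-exposed arrays (7 against 13), with the members called at least 2-fold higher or lower in controls at the right. The B cell list lies lowest in both, at -2.28 and -1.57, and the neutrophil list next, at -1.60 and -0.83.

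Neutrophil genes were the other list with a large shift. Of 20 measured genes, 18 were called lower and none higher, 15 by at least 2-fold and 11 without overlap, with a median of -1.60. Among all probe sets 25.9% were called lower, 3.29% by at least 2-fold, and 9.34% lay lower without overlap. Csf3r, the receptor of granulocyte colony-stimulating factor, lay at 6.57 (lowest), 7.85 (median) and 8.41 (highest) in B-cell deficient arrays and at 11.39, 12.78 and 13.98 in C57BL/6 arrays, a fall of 5.35 ± 0.36 (adjusted p = 1.06e-09). The calprotectin genes S100a8 and S100a9 fell by 4.38 ± 0.50 and fell by 3.11 ± 0.42. Cxcr2, the chemokine receptor of neutrophils, fell by 3.64 ± 0.32, the cytokine Il1b fell by 3.80 ± 0.38 and the gelatinase Mmp9 fell by 3.73 ± 0.39. Ngp, a granule protein of immature neutrophils, fell by 4.15 ± 0.26, but its level was at the bottom of the scale in B-cell deficient mice (2.51 ± 0.21, percentile 0.0045), which limits the size that could be seen. Mmp8, the neutrophil collagenase, fell by 2.42 ± 0.44 with overlap, and the granule genes Camp and Mpo fell by 0.61 ± 0.09 and fell by 0.68 ± 0.10 without overlap. The 2 genes that did not pass were Ltf, lactoferrin (-0.34 ± 0.47, adjusted p = 0.556; 0.45 against C57BL/6 controls 5 and 6 alone and 0.18 on the deposited scale), and Elane, neutrophil elastase (0.13 ± 0.12, adjusted p = 0.377). Slfn4, Stfa2l1, Tarm1 and Ifitm6, all expressed in myeloid cells, were also among the 15 largest falls, by 4.01 ± 0.32, 3.55 ± 0.30, 3.30 ± 0.27 and 3.26 ± 0.32 in size.

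The C57BL/6 controls were not uniform for these genes. In 19 of the 20 neutrophil genes, controls 1 to 4 had a higher mean than controls 5 and 6, with a median gap of 1.27. Csf3r, for example, had a mean of 13.36 in controls 1 to 4 and 11.82 in controls 5 and 6. Against controls 5 and 6 alone, 8 of the 20 genes were called at least 2-fold lower and the median was -0.76; against controls 1 to 4 alone, the count was 15 and the median -2.06. Mmp9 fell by 2.40, Il1b fell by 2.52 and S100a9 fell by 1.68 against controls 5 and 6, and Retnlg, a resistin-like gene of neutrophils that fell by 1.82 ± 0.45 against all 6, lost its call (-0.73, adjusted p = 0.369). The same 2 controls had the lower means in all 12 genes of natural killer and cytotoxic cells, and in 13 of 16 genes of monocytes and interstitial macrophages. The pattern was not particular to these lists. It held in 26 of 29 B cell genes, 21 of 26 interferon-stimulated genes, 13 of 16 fibroblast and smooth muscle genes and 8 of 11 MHC class II genes. It held in only 5 of 12 plasma cell genes and 5 of 17 clock genes. The share over all probe sets was not counted. The part of controls 5 and 6 in the difference was not tested.

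Monocyte, macrophage and cytotoxic cell genes were lower to a smaller extent. Of 16 genes of monocytes and interstitial macrophages, 9 were lower, 6 by at least 2-fold, and 2 higher, with a median of -0.65. Across all probe sets 25.9% were lower, 3.29% by at least 2-fold, and 26.4% higher. Plac8 fell by 2.62 ± 0.23 and Treml4, found on patrolling monocytes, fell by 1.89 ± 0.26, while Csf1r, the receptor of macrophage colony-stimulating factor, fell by 1.19 ± 0.13, from 12.71 ± 0.26 to 11.52 ± 0.28 without overlap. The complement gene C1qb fell by 1.16 ± 0.16 and the fractalkine receptor Cx3cr1 fell by 1.33 ± 0.25, the latter with overlap and without a call on the deposited scale (-0.53, adjusted p = 0.0509). The 2-fold count fell to 3 on the deposited scale and without the 4 arrays of narrow spread. Of 12 natural killer and cytotoxic genes, 10 were lower and none higher, 5 by at least 2-fold, with a median of -0.73. The granule proteases and pore former of killer cells stood first, with Gzma down by 1.66 ± 0.22 in size (-0.86 against C57BL/6 controls 5 and 6 alone) and Prf1 by 1.60 ± 0.15 (-0.77 on the deposited scale). The receptor Ncr1 fell by 1.26 ± 0.24, which became -0.51 (adjusted p = 0.177) against C57BL/6 controls 5 and 6 alone, where 2 of the 12 genes were 2-fold lower.

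T cell genes did not move as a block. Of 20 measured, 7 were lower, 1 of them by at least 2-fold, 2 higher and 11 not called, with a median of -0.34. Over all probe sets 25.9% were lower and 26.4% higher. In 3 of the 20 every B-cell deficient array lay below every C57BL/6 array, and in 1 above. The shares of all probe sets were 9.34% and 8.98%. Zap70 lay between 4.26 and 4.94 in B-cell deficient arrays and between 5.28 and 5.96 in C57BL/6 arrays. The same held for Thy1, between 5.79 and 6.76 against between 6.81 and 7.56, and for Cd2, between 8.52 and 8.93 against between 8.95 and 9.62. Ubash3a was the gene that lay above, between 5.99 and 6.67 against between 5.34 and 5.82. Cd3e, a chain of the T cell receptor complex, had 8.96 ± 0.41 in B-cell deficient and 8.75 ± 0.43 in C57BL/6 lung (a difference of 0.21 ± 0.19, adjusted p = 0.374; -0.02 with arrays centred on their median and 0.53, a call, on the deposited scale). The co-receptor Cd4 had -0.17 ± 0.20 (adjusted p = 0.512; 0.13 on the deposited scale), while Cd8a rose by 0.42 ± 0.13 (adjusted p = 0.0122), a call that ended against C57BL/6 controls 5 and 6 alone (0.44, adjusted p = 0.0896) and in the model over all 8 groups. Of 13 dendritic cell genes, 4 were higher and 2 lower, beside 26.4% and 25.9% of all probe sets. At least 2-fold, 1 was higher and 1 lower. Cd209a, a lectin of monocyte-derived dendritic cells, rose by 1.27 ± 0.17 (adjusted p = 6.86e-06), and the lowest difference of the list was -1.39.

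Interferon-stimulated genes were lower in B-cell deficient control lung. Of 26 measured, 17 were called lower and 2 higher, 8 lower by at least 2-fold and 11 without overlap, with a median of -0.64. Among all probe sets 25.9% were called lower and 26.4% higher, 3.29% were lower by at least 2-fold and 9.34% lay lower without overlap. Irf7, the factor that amplifies the interferon response, lay at 4.46 (lowest), 5.43 (median) and 5.92 (highest) in B-cell deficient arrays and at 7.19, 8.12 and 9.89 in C57BL/6 arrays, a fall of 3.02 ± 0.31 (adjusted p = 2.97e-07). Ifi27l2a fell by 2.08 ± 0.24, the antiviral enzymes Oas2 and Rsad2 fell by 1.73 ± 0.24 and fell by 1.69 ± 0.19. C57BL/6 control 3 stood above the other 5 in this list, with a mean over the 26 genes of 8.98 where the others lay between 8.03 and 8.38. All 9 B-cell deficient arrays lay between 7.52 and 7.79. On the deposited scale 3 of the 26 genes were 2-fold lower, and Ifi27l2a was at -1.32, Oas2 at -0.92 and Rsad2 at -0.94.

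**Figure D3:**
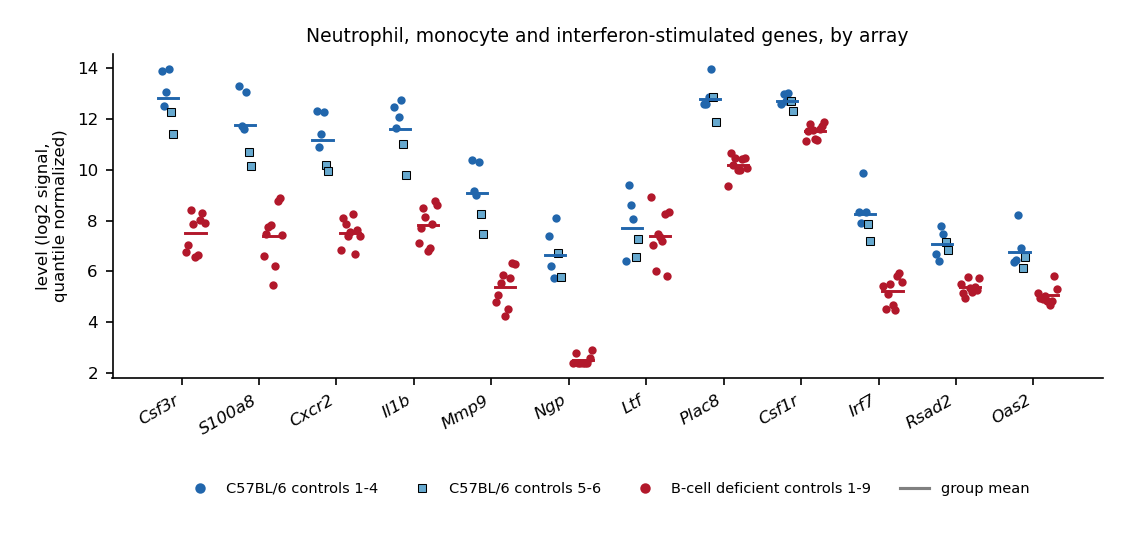
Level (log2 signal, quantile normalized; y axis) of 12 neutrophil, monocyte and interferon-stimulated genes (x axis) in each array, with blue circles for C57BL/6 controls 1 to 4, outlined squares for controls 5 and 6, red circles for the 9 B-cell deficient controls and a bar for each group mean. The squares sit below every blue circle for Csf3r, S100a8, Cxcr2 and Mmp9 and above every red circle, and Ltf overlaps.

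Clock genes moved in both directions. Of 17 measured, 9 were higher and 3 lower, 6 and 2 by at least 2-fold, with a median of 0.86. Over all probe sets 26.4% were higher and 25.9% lower, 3.15% and 3.29% by at least 2-fold. Arntl (BMAL1) and Npas2, which form the activating arm of the clock, fell by 1.57 ± 0.18 (adjusted p = 1.21e-06) and fell by 1.31 ± 0.25. Other clock genes rose, Dbp by 2.26 ± 0.36, Nr1d1, a repressor of Arntl, by 1.81 ± 0.28, Per1 by 1.65 ± 0.43, Per2 by 1.55 ± 0.34 and the repressor Ciart by 1.17 ± 0.23. Dbp lay between 15.01 and 16.86 in B-cell deficient arrays and between 11.48 and 14.70 in C57BL/6 arrays. C57BL/6 control 4 was the lowest of these by 2.12, since the next array stood at 13.60. Against C57BL/6 controls 5 and 6 alone the 2-fold counts were 3 and 1, Dbp rose by 1.27, and Npas2 (-0.84, adjusted p = 0.0700) and Per2 (1.23, adjusted p = 0.0595) were not called. Without the 4 arrays of narrow spread the counts were 2 and 1, Per2 rose by 0.98 and Per1 was not called (1.06, adjusted p = 0.0581). The labels give a light-dark cycle but no clock time of tissue collection.

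The E-box CACGTG, its own reverse complement, is the element bound by the activating arm of the clock. This motif was chosen after the clock genes were seen to differ. It was found in 6 of 20 promoters (30%) of the 15 measured clock genes with an entry, those of Per1, Cry1, Tef, Bhlhe41 and Ciart, and in 7.15% of all promoters. Of these 5 genes Per1 and Ciart were called, and the 250 bases before their starts are shown with the E-box in capitals (GRCm38.p6, the first of 2 promoters for Per1).
Per1, chr11:69098699-69098948, plus strand: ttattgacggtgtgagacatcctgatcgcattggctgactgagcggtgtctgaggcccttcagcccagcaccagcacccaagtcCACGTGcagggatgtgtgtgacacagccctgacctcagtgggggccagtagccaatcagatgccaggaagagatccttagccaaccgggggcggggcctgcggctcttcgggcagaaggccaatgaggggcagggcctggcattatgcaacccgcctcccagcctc
Ciart, chr3:95882229-95882478, minus strand: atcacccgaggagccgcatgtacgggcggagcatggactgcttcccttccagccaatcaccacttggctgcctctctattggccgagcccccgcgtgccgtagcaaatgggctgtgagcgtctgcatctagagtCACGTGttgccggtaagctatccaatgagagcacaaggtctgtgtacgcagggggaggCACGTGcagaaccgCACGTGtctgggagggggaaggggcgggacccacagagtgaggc
Per1 holds a single E-box, 166 bases before the start, and Ciart holds 3, at 116, 58 and 44 bases before it.

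Zbtb16, a zinc finger transcription factor, was among the 15 largest rises. It lay at 13.65 (lowest), 14.55 (median) and 15.69 (highest) in B-cell deficient arrays and at 10.00, 12.06 and 12.79 in C57BL/6 arrays, a rise of 2.89 ± 0.38 (adjusted p = 4.28e-06). Fkbp5, a co-chaperone of steroid receptors that was outside the rule for named genes and was chosen after its value was seen, rose by 1.72 ± 0.35 with overlap, and by 1.08 without the 4 arrays of narrow spread.

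**Figure D4:**
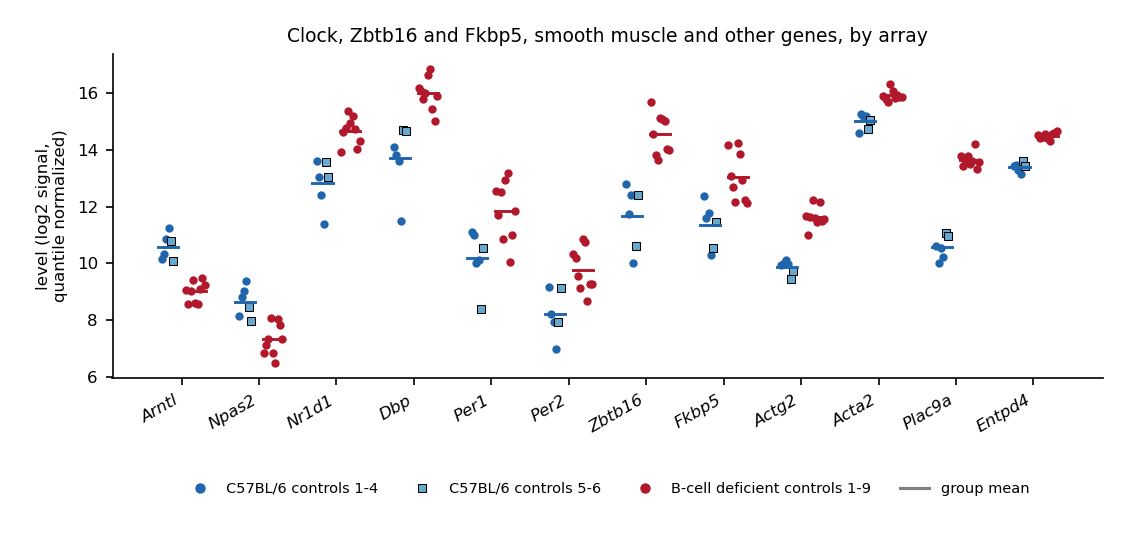
Level (log2 signal, quantile normalized; y axis) of 12 genes (x axis) in each array, with blue circles for C57BL/6 controls 1 to 4, outlined squares for controls 5 and 6, red circles for the 9 B-cell deficient controls and a bar for each group mean. The means of Arntl and Npas2 are lower in B-cell deficient arrays and those of the other 10 genes higher; Plac9a and Entpd4 have narrow groups that stand apart.

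Genes of structural lung cells moved in both directions, by smaller amounts. The counts below stand beside 26.4% higher and 25.9% lower over all probe sets. Of 16 genes of fibroblasts and smooth muscle, 11 were higher and 1 lower, with a median of 0.67. Actg2, an actin of smooth muscle, lay between 11.01 and 12.24 in B-cell deficient arrays and between 9.45 and 10.10 in C57BL/6 arrays, and rose by 1.77 ± 0.15 (adjusted p = 4.12e-08). Acta2 rose by 0.91 ± 0.11, the smooth muscle myosin Myh11 by 0.91 ± 0.11, the contractile protein gene Tagln by 0.85 ± 0.12 and the collagen gene Col1a1 by 0.94 ± 0.18. These genes are bright, and with arrays centred on their median in place of quantile normalization Acta2 rose by 0.41, Myh11 by 0.55, Tagln by 0.47 and Col1a1 by 0.59. Of 12 genes of alveolar type 1 cells, 8 were higher and 1 lower, with a median of 0.38; Cav1, the coat protein of caveolae, rose by 0.97 ± 0.09 and Vegfa by 0.85 ± 0.14 (0.63 and 0.35 with arrays centred on their median). Of 16 endothelial genes 8 were lower and 3 higher, with Vwf, the von Willebrand factor, lower by 0.74 ± 0.13 in size (-1.12 with arrays centred on their median). Of 13 genes of alveolar type 2 cells 4 were lower and 1 higher (median -0.26), and of 14 genes of ciliated cells 3 were lower and 4 higher (median 0.02). Of 21 mucous and secreted airway genes 16 were not called, 4 were higher and 1 was lower, and Chia1, the acidic chitinase, rose by 2.09 ± 0.25 (adjusted p = 1.49e-06), from between 6.77 and 8.61 to between 9.19 and 10.35.

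The largest rises of named genes came from unrelated families. Plac9a and Plac9b, near-identical neighbouring genes whose probe sets may read the same transcripts, rose by 3.09 ± 0.15 and 3.20 ± 0.15 (adjusted p = 4.44e-12 and 2.83e-12). Plac9a lay between 13.32 and 14.21 in B-cell deficient arrays and between 10.02 and 11.05 in C57BL/6 arrays. Adh7, a retinol-oxidizing alcohol dehydrogenase, rose by 2.49 ± 0.24, the zinc finger gene Snai3 by 2.21 ± 0.15 and Ccdc7a by 2.17 ± 0.33. Several of the others were dim in C57BL/6 lung: Lce3c (2.30 ± 0.37), Cts3 (2.21 ± 0.26), the defensins Defb1 (2.20 ± 0.21) and Defb7 (2.12 ± 0.20), and the hair keratin-associated Krtap6-5 (2.12 ± 0.19). These belong to families of close copies, so the exact gene is uncertain. Ccdc7a lay between 9.97 and 10.57 in B-cell deficient controls 1, 2, 5 and 6, the arrays of narrow spread, and between 8.30 and 8.97 in the other 5, and Cts3 between 7.78 and 8.53 and between 6.58 and 7.32. Without the 4 arrays the rises were 1.47 for Ccdc7a and 1.73 for Cts3.

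A single array set the size for some of these genes. B-cell deficient control 7 stood at 14.13 for both Krt13 and Krt4, keratins of squamous epithelium, while the other 8 lay between 6.43 and 8.58 for Krt13 and between 5.68 and 7.99 for Krt4. The same array had a mean of 9.22 over 9 squamous genes, where the next highest was 6.26, and the highest mean over 12 heart and skeletal muscle genes (11.46, next 10.70). Without it, Krt13 rose by 1.71 in place of 2.46 ± 0.79, Krt4 by 1.59 in place of 2.43 ± 0.88 and Tnni2, a troponin of fast skeletal muscle, by 1.78 in place of 2.11 ± 0.37. The keratins were not called against C57BL/6 controls 5 and 6 alone (adjusted p = 0.174 for Krt13 and 0.270 for Krt4). Krt4 was not called against controls 1 to 4 alone either (2.51, adjusted p = 0.0587). These fits kept B-cell deficient control 7. The C57BL/6 arrays lay between 5.37 and 5.94 for Krt13 and between 4.74 and 5.48 for Krt4, so the groups did not overlap.

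Genes near the targeted locus on the reference gene order were looked at, since stem cell DNA can stay linked to a targeted gene. Of 43 measured genes among the 25 nearest to Ighm on either side (18 on the distal side), 27 were called (62.8%, against 51.9% of 19438 placed genes) and 2 by at least 2-fold (4.65%, against 6.22%). Among the nearest 100 on either side, 59 of 118 (50%) and 6 (5.08%) were. The 2 nearby genes at 2-fold were the kinase Akt1, which fell by 1.11 ± 0.12 (adjusted p = 3.59e-07), and the lysosomal nuclease Pld4, which fell by 1.37 ± 0.20.

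Of 8 measured genes on a list of loci reported to differ among C57BL/6 substrains, 2 were higher and 3 lower, beside 26.4% and 25.9% of all probe sets. Entpd4, a nucleotide hydrolase of the Golgi, lay between 14.32 and 14.65 in B-cell deficient arrays and between 13.14 and 13.61 in C57BL/6 arrays, and rose by 1.11 ± 0.08 (adjusted p = 3.91e-09). A second probe set of the gene gave 1.13, and with arrays centred on their median the rise was 0.73. Cyfip2, a regulator of actin, fell by 1.14 ± 0.12 and Nlrp12, an innate sensor of myeloid cells, fell by 2.47 ± 0.26. Of 3 measured Y-linked genes 1 was called, beside 52.3% of all probe sets.

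The same genotype difference was available in separate arrays of MDI-exposed mice (7 B-cell deficient against 13 C57BL/6), which share no array with the controls. They are not free of the offset between genotypes. On the deposited scale the median difference of all probe sets was 0.53 under MDI, against 0.54 in controls. There 6351 probe sets (28.6%) were called and 320 (1.44%) by at least 2-fold. Of the 1431 probe sets called at least 2-fold in controls, 214 (15%) were called so in the same direction under MDI, which is 66.9% of the 320, and 1 in the opposite direction. Of the 29 B cell genes, 27 were called lower under MDI, with a median of -1.57, and none higher (14.5% of all probe sets were lower). In submission block 1, which holds 4 B-cell deficient and 12 C57BL/6 arrays of MDI-exposed mice, 25 of the 29 were lower, with a median of -1.80 (7.08% of all probe sets were lower there).

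Some genes differed by genotype to a like extent in both sets. Cd79a had -6.32 ± 0.18 in controls and -6.19 ± 0.23 under MDI, and the difference between these, tested over all 35 arrays, was -0.33 ± 0.32 (adjusted p = 0.525). Ms4a1 had -3.18 ± 0.14 and -3.59 ± 0.21, Pou2af1 -3.05 ± 0.13 and -3.29 ± 0.17, and Jchain -6.50 ± 0.34 and -7.59 ± 0.35. Plac9b had 3.20 ± 0.15 and 3.03 ± 0.14, Entpd4 1.11 ± 0.08 and 1.24 ± 0.11, Actg2 1.77 ± 0.15 and 1.78 ± 0.26, and Arntl -1.57 ± 0.18 and -1.28 ± 0.14. In block 1 alone, where both genotypes were submitted together, the MDI differences were -6.18 ± 0.30 for Cd79a, 3.09 ± 0.17 for Plac9b, 1.24 ± 0.14 for Entpd4, 1.54 ± 0.32 for Actg2 and -1.28 ± 0.18 for Arntl.

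Other genes did not hold the same size. The difference in controls differed from that under MDI in 3155 probe sets (14.2%), among them 860 of the 1431. The 1431 were picked for a large difference in the control arrays, which enter this test, so the count of 860 is not free of that choice. The B-cell deficient controls are all in submission block 2, whereas 4 of the 7 B-cell deficient MDI arrays are in block 1. Exposure and submission run are therefore partly mixed in this test, and the part of the run was not tested. Irf7 had -3.02 ± 0.31 in controls and 0.34 ± 0.28 under MDI (difference -3.44 ± 0.45, adjusted p = 4.59e-05). Of the 26 interferon-stimulated genes, 16 had a called difference of this kind, each lower in controls than under MDI (6.99% of all probe sets were). Mmp9 had -3.73 ± 0.39 and -0.37 ± 0.39 (difference -3.46 ± 0.60), Retnlg -1.82 ± 0.45 and 1.04 ± 0.28, and Csf1r -1.19 ± 0.13 and -0.16 ± 0.15. Of the neutrophil genes, 4 of 20 differed in this way, and 12 were called lower under MDI, with a median of -0.83. Of the B cell genes, 6 of 29 differed, all larger in size in controls, with Bank1 at -4.95 ± 0.20 and -2.94 ± 0.27. Of the 11 MHC class II genes 5 differed, H2-Aa having -0.65 ± 0.18 and 0.37 ± 0.17. Ccdc7a had 2.17 ± 0.33 in controls and 0.04 ± 0.15 under MDI.

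**Figure D5:**
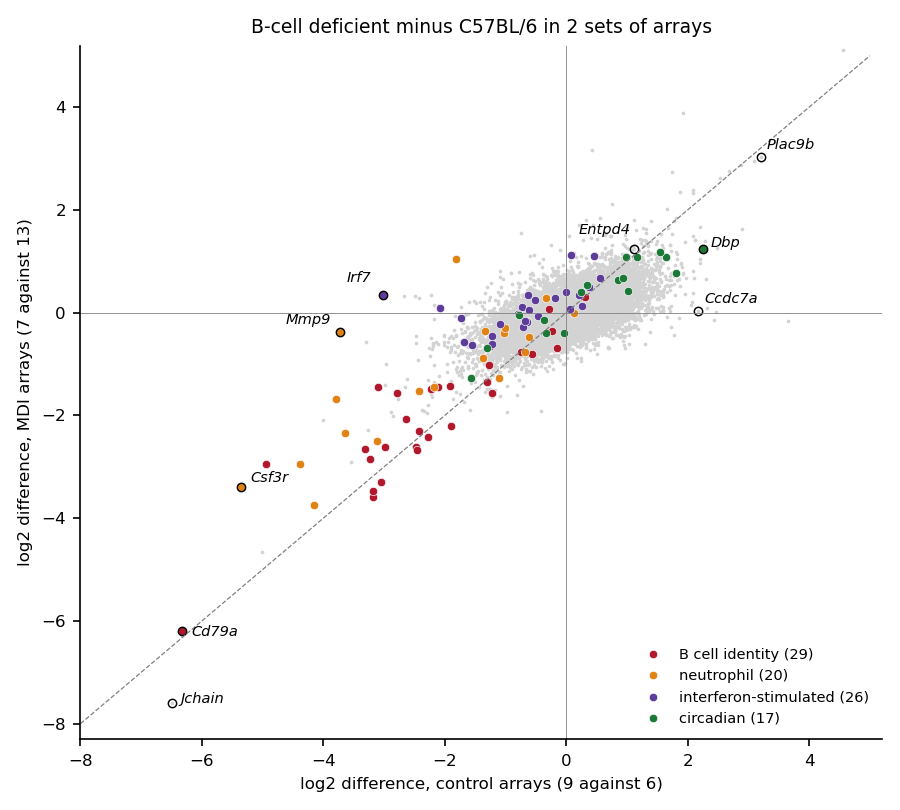
Log2 difference between B-cell deficient and C57BL/6 lung in control arrays (x axis, 9 against 6) and in separate MDI-exposed arrays (y axis, 7 against 13), with every probe set in grey, 4 gene lists in colour, 9 genes outlined and named, and a dashed line where both are equal. Cd79a and Plac9b lie near the line, whereas Irf7, Mmp9 and Ccdc7a lie near 0 on the y axis.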

How the data were processed

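RNA of each lung (250 ng) was labelled with biotin and hybridised to 1-colour Affymetrix arrays. The authors deposited 1 value per probe set and array, processed with the Transcriptome Analysis Console per the submitters' processing notes; no source used here states its version or the normalization. The deposited values were read as log2 signal from their range. Of 22206 probe sets, 19572 had 1 gene symbol, 2634 none and 0 several in the platform annotation used.

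The 15 arrays were quantile normalized together and fitted with limma 3.58.1 in R 4.3.3 (lmFit, eBayes with an intensity trend) with no covariate, and p-values were adjusted by Benjamini-Hochberg over all probe sets. MDI-exposed arrays were fitted likewise, and the difference between the 2 sets over 35 arrays. The number of arrays limits the precision. On simulated data the fit called 96 of 100 probe sets changed by 1 on the log2 scale, 98 of 100 changed by 2, and 8 unchanged ones, among 22206. The simulated noise was independent and held no difference between submission runs. These counts therefore do not give the error rate of the comparison itself, where genotype and run coincide.

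Named genes were the 15 largest called rises and falls with a gene symbol, members of the lists of B cells, plasma cells, follicles, Fc receptors, substrain and sex, leading and defining members of the other lists, 2-fold called neighbours of Ighm, and Csf3r, Mmp9 and Irf7. The comparison, the lists and the tests were chosen with earlier results of these data known. Alternatives covered scaling, a filter on dim probe sets, the model, the arrays used and each array left out. The 2 arrays whose title and treatment labels disagree on crofelemer were put in no group and not used. Figures were drawn with Python 3.11.15 and matplotlib 3.10.9.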

Additional observations from a re-analysis of the deposited data

Results flagged for a closer look

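In 15 of 224 groups of arrays tested, 1 array stood apart from the rest of its group by Dixon's test at the 95% level, which chance does in about 1 of 20 groups. B-cell deficient control 7 was the highest of its group for Plac9b (14.30), Plac9a (14.21), Krt13 (14.13), Krt4 (14.13), Lce3c (11.10) and Tnni2 (10.06), and the lowest for Cd4 (7.90). B-cell deficient control 2 was the highest for Cd79a (5.26), still far below the C57BL/6 arrays. Among C57BL/6 arrays, control 4 was the lowest for Dbp (11.48), control 1 the highest for Defb1 (6.02) and control 3 the highest for Oas2 (8.23). Control 6 was the highest for Ccdc7a (7.76) and the lowest for Cd79b (8.56) and Siglecg (4.63), and control 5 the highest for Tnfsf13b (9.32).

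For 42 named genes the genotype difference in controls differed from that in MDI-exposed mice by a limma test over 35 arrays. In 33 of these it was lower in controls. Many of the 42 were named for a large difference in controls, and the same control arrays enter this test. The direction therefore follows in part from that choice. Over all probe sets 50.8% of the 3155 called differences were higher in controls. All 42 had the same sign with the deposited values, which come from the same arrays. Among B cell and follicle genes the difference of the differences was -2.13 for Bank1, -1.67 for Cd37, -1.25 for Spib, -0.84 for Blnk, -0.82 for Cd22, -0.77 for Fcer2a and -0.65 for Ltb. Among neutrophil and other myeloid genes it was -3.46 for Mmp9, -2.87 for Retnlg, -2.82 for Tarm1, -2.16 for Il1b, -2.09 for Nlrp12, -2.06 for Slfn4, -2.02 for Csf3r, -1.31 for Plac8, -1.03 for Csf1r and -0.84 for Cx3cr1. Interferon-stimulated genes gave -3.44 for Irf7, -2.22 for Ifi27l2a, -1.66 for Oas2 and -1.18 for Rsad2. Antibody receptor and MHC class II genes gave -1.43 for Fcgr4, -1.16 for Fcer1g, -1.02 for H2-Aa, -0.99 for H2-Ab1, -0.88 for H2-Oa and -0.83 for H2-DMb2. The cytotoxic genes Gzma and Prf1 gave -1.05 and -0.85, and Vwf, Cyfip2, Akt1 and Pld4 gave -0.85, -0.51, -0.78 and -0.96.

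The genes with a higher value in controls were Ccdc7a (2.18), Lce3c (1.72), Tnni2 (1.51), Defb1 (1.33), Cts3 (1.27), Adh7 (1.26), Krtap6-5 (0.81), Defb7 (0.75) and Snai3 (0.65). All of them were named as being among the 15 largest rises in controls. In the MDI arrays, submission blocks differ in their share of each genotype, and the part of this in the differences was not tested.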

How the results depend on the processing

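The count of 11612 called probe sets became 5839 with a filter on dim probe sets (52.6% of those tested) and 6184 with C57BL/6 controls 5 and 6 alone, and lay between 10732 and 11737 with any 1 array left out. The count of 1431 at 2-fold became 5164 on the deposited scale, 2263 with each array centred on its median and 687 with the dim filter, and 1302 to 1585 with 1 array left out. The share of called probe sets that were higher was 50.5%, and 90.1% on the deposited scale. The 23 B cell genes lower by 2-fold became 10 of the 14 left by the dim filter, and stayed 23 with any array left out. The 15 neutrophil genes became 8 of the 10 left by the dim filter, 8 of 20 with C57BL/6 controls 5 and 6 alone and 10 of 20 on the deposited scale, and 12 to 15 with 1 array left out. Under MDI, 6351 calls became 16882 on the deposited scale and 3255 in block 1, and the 49.4% share of higher calls became 98% on the deposited scale and 30.2% with arrays centred on their median.

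The alternatives were run for 112 named genes, which leave out Mmp8, Camp, Mpo, Elane, Zap70, Thy1, Cd2 and Ubash3a. Of the 112, 84 kept direction and call under every alternative that gave them a value (29, or 28 for genes the dim filter removed). Another 8 changed sign somewhere. On the deposited scale these were Vpreb3 (0.13), Rasgrp3 (0.04), Irf4 (0.14), Tnfrsf17 (0.09), Cd4 (0.13) and Ltf (0.18). With arrays centred on their median they were Sdc1 (-0.19) and Cd3e (-0.02). Ltf was at 0.45 against C57BL/6 controls 5 and 6 alone. Groups share replicate numbers 1 to 6, but same-numbered arrays did not deviate together (correlations -0.186 to 0.182), so they share only a number. With the replicate block 11557 probe sets were called, against 11884 in the same arrays without it, and Rasgrp3 was at 0.07 in both fits.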
